A study of Mus musculus with 8 samples.

Results

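The genes described here are 50 genes of the cell division cycle, taken by symbol from the 29955 gene names in the expression files. They hold 9 genes of G1 and S entry, 11 of replication licensing and the replication fork, 3 of deoxynucleotide synthesis, 7 of mitotic entry, 8 of the kinetochore and spindle checkpoint, 8 of the spindle, midzone and chromosomal passenger complex, 2 of the anaphase-promoting complex, and the proliferation marker Mki67 with the DNA topoisomerase Top2a. Bulk RNA-seq was done on mouse bone marrow sorted into LSK cells (Lin- Sca1+ Kit+, the stem and multipotent progenitor gate) and LK cells (Lin- Kit+ without Sca1, the myeloid progenitor gate). There were 4 groups of 2 libraries each, WT LSK, Ripk3-KO LSK, WT LK and Ripk3-KO LK, all on the background given as CD57BL6/J. Ripk3 encodes a kinase of necroptosis, and Ripk3-KO mice lack it in every cell, not only in blood.

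The labels describe freshly sorted, untreated cells. The paper's account of its RNA-seq instead describes mice of both genotypes given repeated weekly X-ray doses, with cells collected a month after the last dose. Which of these holds was not settled from the values. Neither source gives the age of the mice behind a library, nor whether animals were pooled or replicates came from separate animals, so every p-value measures only the spread between these libraries. All 4 WT libraries carried Xist and no signal at the Y-linked genes Uty, Eif2s3y and Kdm5d, and all 4 Ripk3-KO libraries had signal at Uty (16.8 to 31.6) and Eif2s3y (47.0 to 98.8) and little Xist (Kdm5d was low in Ripk3-KO, at 0.124 to 4.89, and Ddx3y, also Y-linked, is listed at 0 in all 8 libraries), so sex and genotype cannot be told apart here.

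Cells enter the cycle when D-type cyclins with Cdk4 and Cdk6, then cyclin E with Cdk2, release E2F factors that switch on the genes for DNA replication. MCM helicases are loaded onto origins by Cdc6 and Cdt1 in G1, ribonucleotide reductase and thymidylate synthase supply the nucleotides in S phase, and cyclin A and cyclin B with Cdk1 drive mitosis, where kinetochores, the spindle checkpoint and the anaphase-promoting complex time chromosome separation. In bone marrow, long-term stem cells rest for long periods, while the myeloid and erythroid progenitors below them divide often. In bulk RNA, fewer cycling cells and less RNA per cycling cell cannot be told apart.

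The files held 9782166 to 16280811 recovered reads per library, fewer in the LSK libraries (12657237 at most) than in the LK libraries (13113942 at least). The deposited signal is a read count times 1 factor per library (one read is worth 0.0621 to 0.104), it is not divided by gene length, and LSK and LK were scaled apart from each other. Genotypes are therefore compared within LSK and within LK on the signal, and LSK with LK on TMM-scaled CPM (recovered reads divided by the scaled library size) with 1 set of factors for all 8 libraries. Ripk3 itself had a signal of 162 and 168 in WT LSK and 144 and 150 in WT LK, against 3.38 and 1.08 in Ripk3-KO LSK and 16.2 and 10.6 in Ripk3-KO LK. Of the markers of the 2 gates, 8 of 10 LSK markers were higher in LSK than in LK and 9 of 10 myeloid progenitor markers were lower by the limma test. Of the 50 cell cycle genes, 48 passed the filter of a mean of at least 1. Cdc6 and Cenpa, an origin-licensing factor and the centromeric histone, are listed at 0 in every library, and nothing is read from those zeros.

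The first comparison asked how the cycle genes differ between LSK and LK cells over both genotypes. Of the 48 tested, 37 were lower in LSK than in LK and 1, Ccnd1, was higher (limma, Benjamini-Hochberg adjusted p under 0.05). That is 77.1% of the genes lower, against 20.2% of all 15757 genes tested, and 13.7% of all genes were higher (34% in either direction). Among the 10700 genes with a mean of at least 5, 3246 were lower, and 37 of the 48 again. The median difference of the 48 genes was -0.78 on the log2(CPM + 1) scale, while the median over all genes was 0.07. For 34 of the 48 genes all 4 LSK libraries lay below all 4 LK libraries, which holds for 16.7% of all genes. edgeR's quasi-likelihood test of the reads called 37 of the same 38 genes and lost Cdc25c, beside 29.8% of all genes. The size of the shift depends on the scaling. With library totals alone (tried after the data were seen) the median of the 48 genes was -0.41 and that of all genes 0.39. Of the 48 genes 24 were lower and 2 higher, while 5388 of all 15925 genes were called, 1522 of them lower. With quantile normalization the median was -0.46, with 23 lower and 1 higher. There 3693 of all 15757 genes were called, 1962 of them lower. Under these scalings 40 and 41 of the 48 genes lay below 0. Ccna2, Ccnb2, Cdc25c, Cdc45, Cdk1, Cdk6, Cenpe, Nuf2, Nusap1, Pcna, Tyms and Ube2c lost their call under both, E2f1 with library totals only, and Birc5, Cdc20 and Ccnd1 with quantile normalization only.

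**Figure D1:**
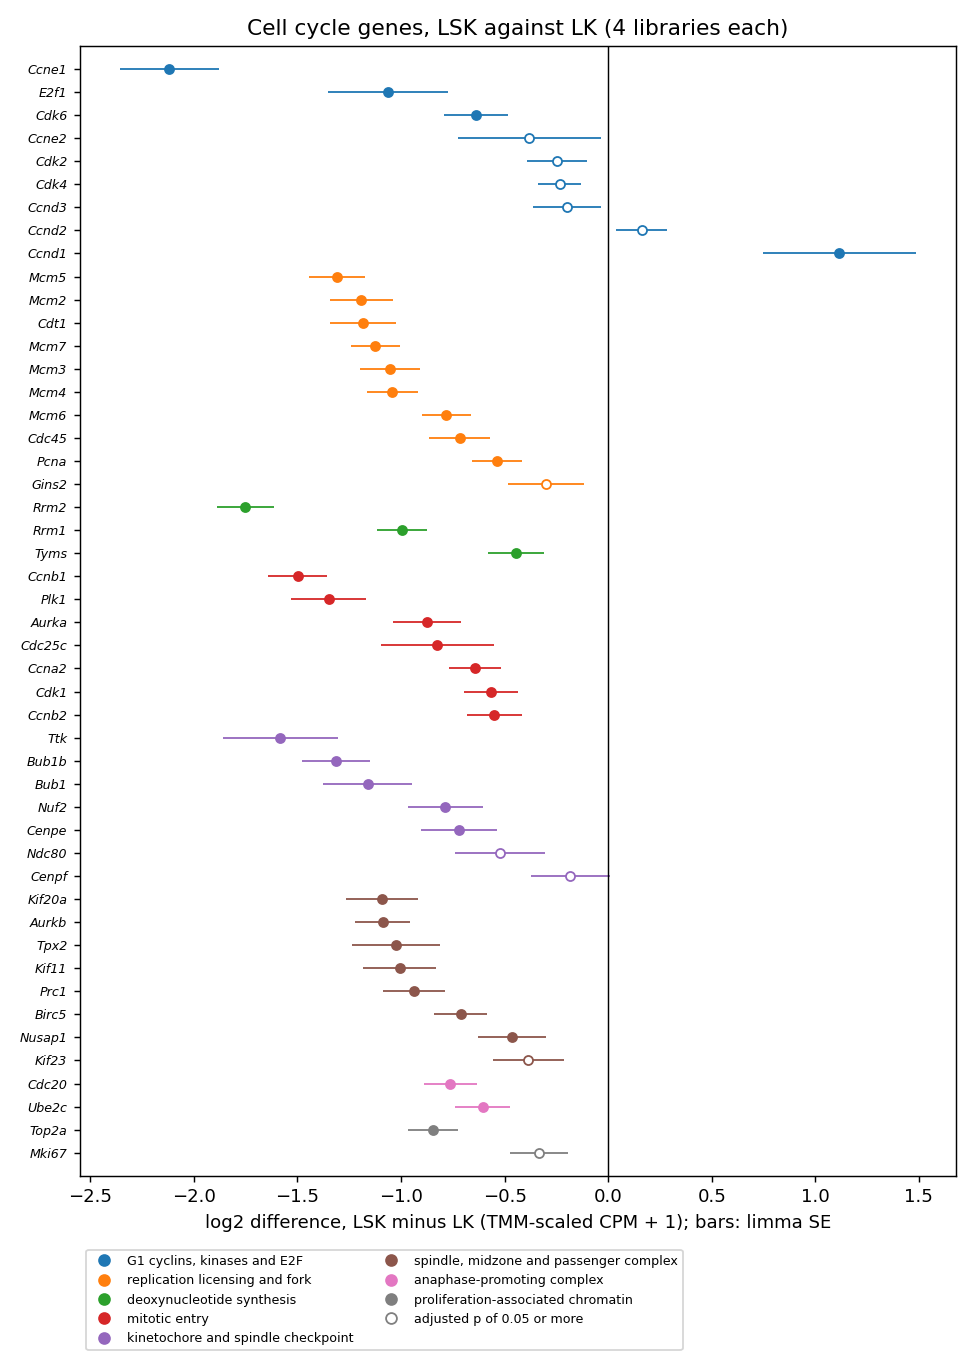
Log2 difference LSK minus LK (horizontal, log2 of TMM-scaled CPM + 1) for the 48 tested cell cycle genes, grouped and coloured by role, with limma standard errors. Open circles did not pass an adjusted p of 0.05. All but Ccnd1 and Ccnd2 lie left of 0 (40 of 48 genes with library totals alone), and the G1 genes spread most, from -2.12 to 1.12.

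The G1 group had calls in both directions. Of its 9 genes 3 (33.3%) were lower in LSK, 1 (11.1%) was higher and 5 did not pass, with a median of -0.25. Of all genes 20.2% were lower and 13.7% higher, so the share of higher calls was near that of all genes. Ccne1, which encodes cyclin E1, the partner of Cdk2 at S entry, had 13.9 and 9.64 CPM in WT LSK and 17.5 and 12.1 in Ripk3-KO LSK, against 75.8 and 75.4 in WT LK and 45.8 and 48.6 in Ripk3-KO LK. No LSK library came near any LK library, and its difference of -2.12 (SE 0.24, adjusted p = 4.4e-07 by limma), a 4.62-fold ratio of means, was the largest of the 48. Ccne2, which encodes the second E-type cyclin, lay at 6.5 to 14.6 CPM in LSK and 9.53 to 16.8 in LK, overlapping ranges, and its difference was -0.38 (SE 0.35, adjusted p = 0.41).

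The 3 D-type cyclin genes did not share a direction. Ccnd1 had 11.1 and 18.5 CPM in WT LSK and 12 and 24.9 in Ripk3-KO LSK, against 6.89 and 4.56 in WT LK and 5.84 and 11.0 in Ripk3-KO LK. Every LSK library lay above every LK library, with the nearest pair almost touching, and the difference was 1.12 (SE 0.37, adjusted p = 0.023). This call was lost in the WT libraries alone (1.21, adjusted p = 0.093), in the Ripk3-KO libraries alone (1.02, adjusted p = 0.20) and when replicate 2 of WT LSK, Ripk3-KO LSK or WT LK, or replicate 1 of Ripk3-KO LK, was left out. Ccnd2 ranged from 326 to 436 CPM in LSK and from 296 to 381 in LK (0.16, SE 0.12, adjusted p = 0.32), and with library totals alone or quantile normalization it was called higher. Ccnd3 overlapped as well (-0.20, SE 0.16, adjusted p = 0.36). Per kilobase of transcript the mean signal in WT LSK was 4.51 for Ccnd1, 59.3 for Ccnd2 and 121 for Ccnd3, so Ccnd1 was by far the least abundant of the 3 D-type cyclin transcripts there.

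Among their kinases, Cdk6 was lower in LSK at 134 to 154 CPM against 159 to 274 in LK (-0.64, SE 0.15, adjusted p = 0.0026). Cdk4 at -0.23 (adjusted p = 0.090) and Cdk2 at -0.25 (adjusted p = 0.20) did not pass. E2f1, the activating E2F factor, gave -1.06 (SE 0.29, adjusted p = 0.0065), but the values differed by genotype: 14.9 and 11.6 CPM in WT LSK stood against 120 and 38.7 in WT LK, whereas Ripk3-KO LSK had 32.0 and 27.7 and Ripk3-KO LK 22.9 and 30.5. In Ripk3-KO libraries alone the sign turned to 0.17 (adjusted p = 0.84), and without WT LK replicate 1 the pooled difference was -0.66 (adjusted p = 0.10).

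Replication genes were lower in LSK with 1 exception. Of the 10 licensing and fork genes tested, 9 were lower in LSK, all 9 without overlap between the populations, with a median of -1.05. Mcm5, one of the 6 subunits of the MCM helicase, had 338 and 332 CPM in WT LSK and 439 and 275 in Ripk3-KO LSK, against 953 and 847 in WT LK and 709 and 897 in Ripk3-KO LK. The groups were far apart, with a 2.46-fold ratio of means (-1.31, SE 0.13, adjusted p = 1.1e-07). The 6 MCM genes fell between -0.78 for Mcm6 and -1.31 for Mcm5. Cdt1, the licensing factor, was at -1.18, Cdc45, which completes the active helicase, at -0.72, and Pcna, the sliding clamp, at -0.54. For Pcna the difference was -0.28 in the WT libraries alone (adjusted p = 0.24 by limma). It was -0.17 with library totals alone and -0.077 with quantile normalization. Gins2 alone did not pass (-0.30, SE 0.18, adjusted p = 0.21), though it was called lower in the WT libraries alone.

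All 3 deoxynucleotide genes were lower in LSK. Rrm2, the regulated small subunit of ribonucleotide reductase, had 110 and 157 CPM in WT LSK and 163 and 157 in Ripk3-KO LSK, against 580 and 465 in WT LK and 472 and 452 in Ripk3-KO LK. Every LSK value lay far below every LK value, 3.36-fold by the ratio of means, and the difference was -1.75 (SE 0.14, adjusted p = 1.3e-09). Rrm1, the large subunit, differed less (-0.995, SE 0.12, adjusted p = 1.1e-06). Tyms, thymidylate synthase, differed least (-0.44, SE 0.13, adjusted p = 0.014). Each of 6 pseudogenes holds a stretch near-identical to part of its transcript and could take some of its reads. Among them Gm8956 matched Ube2c as well, so such a match need not be a full copy of Tyms. The call of Tyms was lost in either genotype alone and without the mean trend of the variance. It was also lost without WT LK replicate 1 or Ripk3-KO LK replicate 2.

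**Figure D2:**
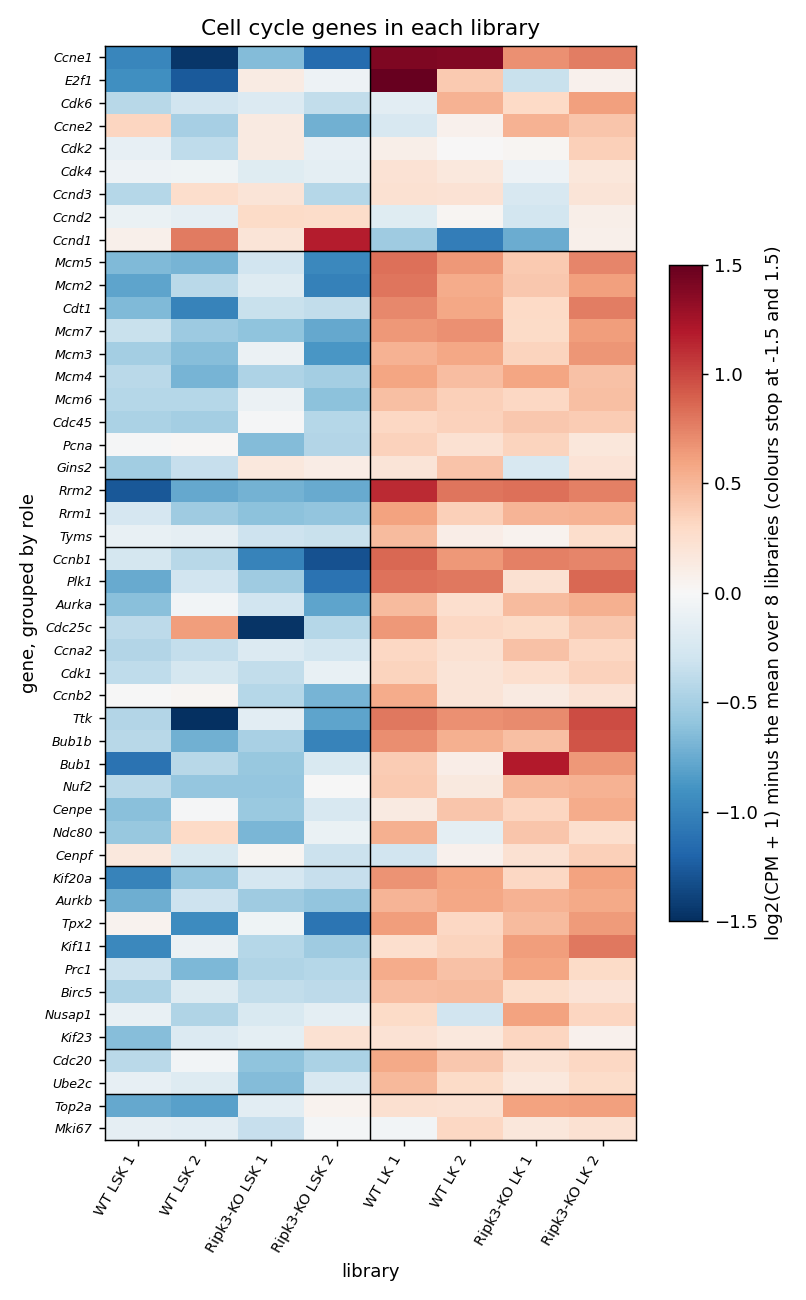
Log2(CPM + 1) of the 48 genes in each of the 8 libraries (columns), each row centred on its own mean, with lines between the role groups and between LSK and LK. Blue is below and red above the mean of the gene. The LSK columns are mostly blue and the LK columns mostly red, and Ccnd1, Ccnd2, E2f1 and Cdc25c are among the rows that break the pattern.

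Mitotic genes were lower in LSK too. All 7 mitotic entry genes were lower in LSK, with a median of -0.82. Ccnb1, which encodes cyclin B1, the activator of Cdk1, had 125 and 112 CPM in WT LSK and 74.5 and 60.4 in Ripk3-KO LSK, against 274 and 237 in WT LK and 254 and 250 in Ripk3-KO LK. The populations were separate, and Ripk3-KO LSK lay lowest (-1.5, SE 0.14, adjusted p = 2.8e-08). Its sister Ccnb2 differed by -0.55 (SE 0.13), but in the WT libraries alone by -0.36 (adjusted p = 0.17) and with quantile normalization by -0.12. Cdc25c, the phosphatase that activates Cdk1, had 10.7 to 49.1 CPM in LSK and 38.5 to 49.8 in LK, overlapping ranges (-0.82, SE 0.27, adjusted p = 0.022), and -0.36 in the WT libraries alone (adjusted p = 0.51). Cdk1 differed by -0.57 (SE 0.13), Ccna2 by -0.64 (SE 0.13), and the kinases Plk1 by -1.35 (SE 0.18) and Aurka by -0.87 (SE 0.16).

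Of 7 tested kinetochore and checkpoint genes 5 were lower in LSK. The largest differences among them were those of Ttk, Bub1b and Bub1. Ttk, the kinase that starts checkpoint signalling, had 21.5 and 7.91 CPM in WT LSK and 26.4 and 16.7 in Ripk3-KO LSK, against 51.9 and 48 in WT LK and 48.8 and 59.4 in Ripk3-KO LK. The LSK replicates were far apart from each other but all below LK (-1.58, SE 0.28, adjusted p = 1.0e-04). Bub1b had 63.7 to 96.5 CPM in LSK and 177 to 249 in LK, with no overlap (-1.31, SE 0.16, adjusted p = 1.6e-06), and Bub1 differed by -1.16 (SE 0.21). The remaining genes of this group were Nuf2 at -0.79, Cenpe at -0.72, Ndc80 at -0.52 (adjusted p = 0.066) and Cenpf at -0.18 (adjusted p = 0.49).

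Of the 8 spindle and midzone genes 7 were lower in LSK, with a median of -0.97. Aurkb, the kinase of the chromosomal passenger complex, had 131 and 175 CPM in WT LSK and 149 and 143 in Ripk3-KO LSK, against 309 and 324 in WT LK and 313 and 323 in Ripk3-KO LK. The 4 LK values were nearly equal and well above LSK (-1.09, SE 0.13, adjusted p = 1.2e-06). Its partner Birc5 differed by -0.71 (SE 0.13), the motors Kif11 by -1.01 (SE 0.18) and Kif20a by -1.09 (SE 0.18), and Kif23, the centralspindlin motor, did not pass (-0.39, SE 0.17, adjusted p = 0.087). Of the anaphase-promoting complex, the activator Cdc20 had 161 to 239 CPM in LSK and 289 to 363 in LK, again separate (-0.76, SE 0.13, adjusted p = 8.2e-05), and its ubiquitin-conjugating enzyme Ube2c differed by -0.61 (SE 0.13). Top2a, which untangles sister chromatids, had 163 and 157 CPM in WT LSK, 249 and 289 in Ripk3-KO LSK, 329 and 326 in WT LK and 425 and 425 in Ripk3-KO LK (-0.85, SE 0.12, adjusted p = 1.0e-05). Mki67, the common proliferation marker, lay at 138 to 173 CPM in LSK and 171 to 218 in LK, ranges that overlapped slightly, and its difference of -0.34 (SE 0.14) did not pass (adjusted p = 0.068).

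Within each genotype alone most of the 48 genes were again lower, but the genes called differed. The WT libraries alone lost the calls of Ccnb2, Ccnd1, Cdc25c, Cdk6, Cenpe, Nusap1, Pcna and Tyms and gained Gins2. The Ripk3-KO libraries alone lost those of Ccnd1, E2f1, Nusap1 and Tyms. In the WT libraries alone 31 of the 48 genes were lower in LSK and none passed as higher, with a median of -0.78 (14.9% of all genes were lower), and in the Ripk3-KO libraries alone 34 were lower and none higher, again with a median of -0.78 (11.7% of all genes were lower). The immediate-early genes moved the opposite way: 10 of 13 were higher in LSK, where 13.7% of all genes were higher and 20.2% lower. Their summed CPM was 21558 to 25422 in LSK against 9913 to 12475 in LK. Other cell markers also held calls, some lists in both directions. Of the 9 erythroid markers 6 were lower in LSK and 2 higher (summed CPM 1478 to 1687 against 2105 to 3445), of the 7 monocyte and dendritic cell markers 4 were lower and 2 higher (935 to 994 against 2412 to 2859), and of the 7 T cell markers 2 were called higher with all 7 above 0 (81.1 to 109 against 15.1 to 24.5). Of the 7 megakaryocyte markers 2 were higher and 2 lower (442 to 494 against 264 to 312). Of the 6 mast cell and basophil markers 1 was higher and 3 were lower (387 to 436 against 492 to 642). Of the 9 mature neutrophil markers 2 were higher and 3 lower, and of 7 B cell markers tested 2 were higher. In lists this short, counts of 1 or 2 say little beside the shares of all genes. The part of these markers in the result was not tested. Genes of the wider cycle were lower as well. Of 158 other cycle genes tested, 92 were lower and 3 higher in LSK, against the same background shares. Tfdp1, the dimer partner of E2F factors, had 70.8 to 115 CPM in LSK and 257 to 396 in LK (-1.77, SE 0.15, adjusted p = 7.3e-09), and Mybl2, the B-MYB factor that drives mitotic genes, had 15.7 to 43.2 and 125 to 163 (-2.37, SE 0.22, adjusted p = 1.6e-08). Both were without overlap. The 2 strongest calls in the other direction were Mycn at 23.8 to 89.5 against 6.35 to 10.6 CPM (2.24, SE 0.29, adjusted p = 2.2e-06) and E2f5 at 11.0 to 20.5 against 3.77 to 11.1 (1.11, SE 0.38, adjusted p = 0.028), the latter with ranges that just overlapped.

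Promoters of cycle genes carry short elements by which S phase and mitotic genes are known to be timed, so the windows of the genes just described were read. RefSeq windows from 250 bases before to 50 bases after the start on GRCm38.p6 were found for 40 of the 50 genes (43 windows). Both strands were searched for the CCAAT box (CCAAT), the cell cycle homology region or CHR (written TTTGAA, with the variant form TTCGAA), and the E2F element. The E2F element was taken as TTCCCGC and in a variant as TTGGCGC, besides which the rarer letters TTCGCGC were counted and so were the letters TTGCCGC. The E2F form TTGGCGC read on the other strand can overlap a CCAAT box. The 4 windows printed are those of the genes with the largest differences between LSK and LK, Ccne1 and Rrm2, and of the 2 genes called between genotypes in LSK, Ccnb1 and Top2a. Capitals mark the elements. They lie at chr7:38107441-38107740 (minus strand) for Ccne1, chr12:24708004-24708303 (plus) for Rrm2, chr13:100786437-100786736 (minus) for Ccnb1 and chr11:99024140-99024439 (minus) for Top2a.
Ccne1: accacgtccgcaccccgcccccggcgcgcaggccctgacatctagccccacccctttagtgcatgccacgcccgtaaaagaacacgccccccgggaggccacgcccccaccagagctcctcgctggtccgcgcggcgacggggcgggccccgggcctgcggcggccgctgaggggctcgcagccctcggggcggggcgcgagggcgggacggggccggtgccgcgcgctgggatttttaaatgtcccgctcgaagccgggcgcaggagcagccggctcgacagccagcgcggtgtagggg
Rrm2: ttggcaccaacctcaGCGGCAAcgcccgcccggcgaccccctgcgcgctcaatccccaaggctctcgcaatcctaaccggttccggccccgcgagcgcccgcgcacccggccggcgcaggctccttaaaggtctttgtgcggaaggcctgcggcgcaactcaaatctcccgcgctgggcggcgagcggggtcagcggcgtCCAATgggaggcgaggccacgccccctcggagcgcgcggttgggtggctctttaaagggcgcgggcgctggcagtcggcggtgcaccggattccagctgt
Ccnb1: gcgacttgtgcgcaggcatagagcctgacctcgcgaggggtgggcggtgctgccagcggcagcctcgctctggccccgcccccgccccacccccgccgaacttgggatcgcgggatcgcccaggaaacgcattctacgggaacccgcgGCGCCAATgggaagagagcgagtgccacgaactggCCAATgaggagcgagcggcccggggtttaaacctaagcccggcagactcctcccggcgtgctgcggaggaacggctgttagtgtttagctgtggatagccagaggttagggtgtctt
Top2a: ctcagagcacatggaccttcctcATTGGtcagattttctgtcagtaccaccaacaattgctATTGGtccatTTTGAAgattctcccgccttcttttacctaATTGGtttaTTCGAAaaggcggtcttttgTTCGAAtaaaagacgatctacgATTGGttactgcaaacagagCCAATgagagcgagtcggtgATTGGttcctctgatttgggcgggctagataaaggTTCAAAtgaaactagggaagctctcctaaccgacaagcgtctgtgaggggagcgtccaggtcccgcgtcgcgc
The Ccne1 window held none of the 3 elements. Rrm2 held 1 CCAAT box and 1 E2F element, Ccnb1 held 2 CCAAT boxes, 1 of them overlapping its E2F element, and no CHR, and Top2a held 6 CCAAT boxes and 4 CHR elements. Over the groups, CHR stood in 76.2% of the 21 windows of mitotic genes and in 23.1% of the 13 windows of replication and nucleotide genes, against 19.2% of all windows. E2F was the reverse, in 9.52% of mitotic and 69.2% of replication windows, against 9.57% of all windows. The CCAAT box stood in 81.0% and 76.9% of them, against 37.4% of all. In the 7 windows of G1 genes these shares were 0 for CHR, 14.3% for E2F and 28.6% for the CCAAT box. These matches describe the letters only.

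The second comparison was between genotypes within LSK cells. Of the 48 genes 1 was higher and 1 lower in Ripk3-KO than in WT, 4.17% of them against 2.16% of all 16817 genes tested (0.892% higher and 1.27% lower). The median difference was 0.05, with 25 genes above 0 and 23 below, beside a median of -0.01 over all genes, of which 49.4% lay above 0. At an unadjusted p under 0.05 there were 5 higher and 4 lower (8.63% and 9.28% of all genes), and edgeR called Top2a only (1.24% of all genes). For 21 of the 48 genes the 2 pairs of libraries did not overlap, 43.8% against 44.6% of all genes.

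Top2a (chr11:98992943-99024189, minus strand, GRCm38) was the higher gene. Its signal was 186 and 179 in WT LSK and 281 and 330 in Ripk3-KO LSK. The pairs were separate, with a 1.67-fold ratio of means and a difference of 0.73 (SE 0.17, adjusted p = 0.023 by limma and 0.037 by edgeR). In LK its signal was 289 and 289 in WT and 374 and 371 in Ripk3-KO, again separate, a difference of 0.37 (SE 0.17) that did not pass (adjusted p = 0.72). Over both populations it was the only one of the 48 genes called (0.55, SE 0.12, adjusted p = 0.018), where 1.64% of all genes were called, and the effects in LSK and LK were not shown to differ (0.37, SE 0.24, adjusted p = 0.62). Mki67, the other proliferation marker, gave 183 and 179 for the WT LSK pair and an overlapping 156 and 198 for Ripk3-KO LSK (-0.04, SE 0.20, adjusted p = 0.93).

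Ccnb1 (chr13:100778650-100786570, minus strand) was the lower gene. It had 142 and 128 in WT LSK and 84.1 and 69.0 in Ripk3-KO LSK, which were separate and 1.76-fold apart (-0.82, SE 0.20, adjusted p = 0.031 by limma and 0.055 by edgeR). In LK it was level at 240 and 210 against 224 and 218 (-0.02, SE 0.20, adjusted p = 0.99). The difference between the 2 effects was -0.79 (SE 0.28) and did not pass (adjusted p = 0.32). For Ccnb1, 5 pseudogenes hold a stretch near-identical to part of its transcript, and the counting could share their reads. For Top2a no such pseudogene was found.

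The calls of Top2a and Ccnb1 in LSK depended on single libraries and on the model. Both were lost when any 1 LSK library or any 1 Ripk3-KO LK library was left out (0 genes called), Ccnb1 was lost without WT LK replicate 1 (1 gene called), and both were lost without the filter, without the mean trend of the variance or with the LSK libraries fitted alone. The directions did not change. The call of Top2a over both populations was lost without WT LSK replicate 2, Ripk3-KO LSK replicate 2 or any 1 LK library (0 genes called).

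Among the other mitotic entry genes, Cdc25c, Ccnb2, Plk1 and Aurka lay below WT in Ripk3-KO LSK without passing. Cdk1 (0.08) and Ccna2 (0.15) lay above WT, also without passing, and the Ccna2 pairs were separate (175 and 184 against 203 and 196). Cdc25c had 27.0 and 55.9 in WT and 12.1 and 26.4 in Ripk3-KO LSK, nearly touching pairs with the widest replicate gaps of the mitotic entry genes (-1.08, SE 0.39, adjusted p = 0.15). Ccnb2 had 253 and 258 against 186 and 156, separate pairs (-0.58, SE 0.18, adjusted p = 0.11). Named after its values were seen, Pcna had 341 and 350 against 218 and 255 (-0.55, SE 0.17, adjusted p = 0.092). In the same replication group the pairs of Gins2 and Cdt1, likewise named after their values were seen, were separate the other way. Gins2 had 48.3 and 54.7 in WT and 77.4 and 75.7 in Ripk3-KO LSK (0.57, SE 0.25, adjusted p = 0.25), and Cdt1 had 77.9 and 61.0 against 97.2 and 96.0 (0.48, SE 0.22, adjusted p = 0.26). Of the 7 mitotic entry genes 5 lay below 0, beside 50.6% of all genes, with a median of -0.31. The 2 anaphase-promoting genes lay at -0.32 and -0.29. On the other side, Ttk had 24.5 and 9.01 in WT and 29.7 and 19.1 in Ripk3-KO LSK, overlapping (0.64, SE 0.39, adjusted p = 0.40). The 10 replication genes had a median of 0.07 and the 7 kinetochore genes of -0.08.

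**Figure D3:**
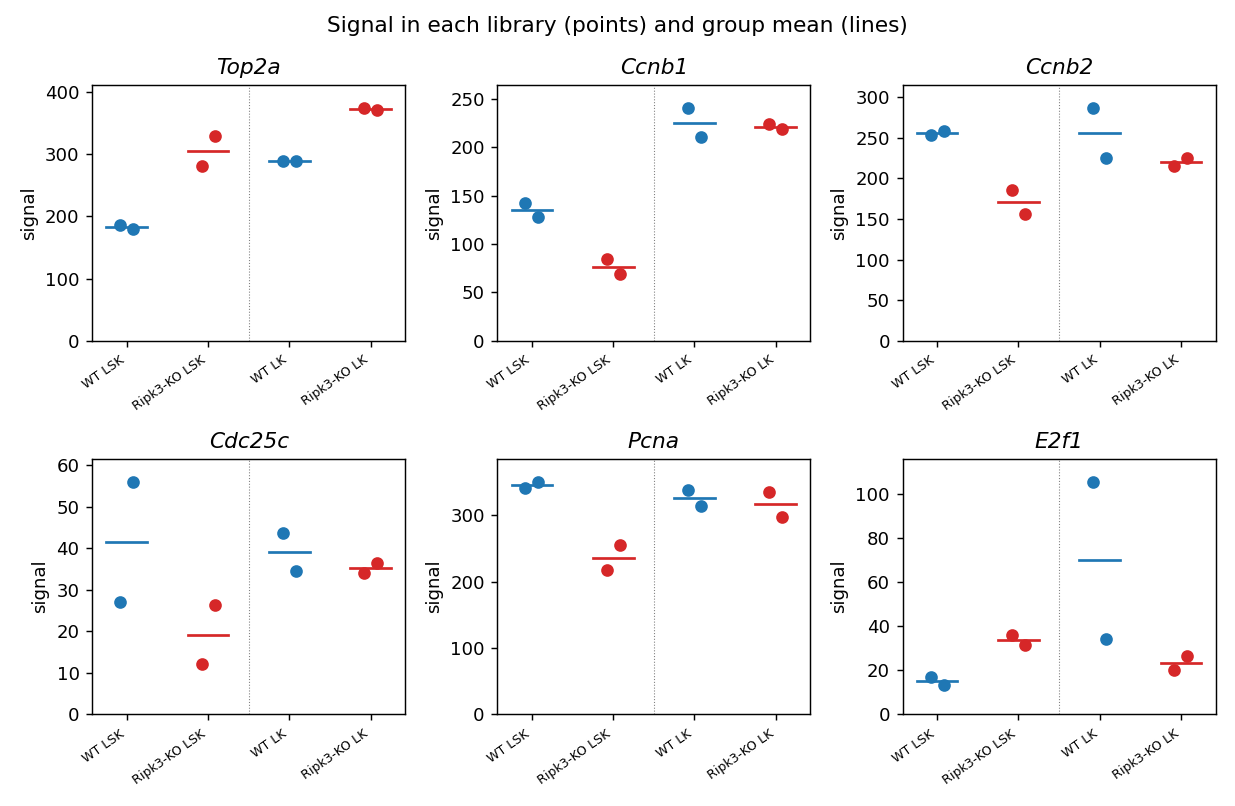
Signal (vertical, from 0) of 6 genes in each library as points with group means as lines, WT in blue and Ripk3-KO in red. LSK and LK, split by the dotted line, were scaled separately and are to be compared only within each side. Top2a is higher and Ccnb1, Ccnb2 and Pcna are lower in both Ripk3-KO LSK libraries than in both WT ones, and the 2 WT LK libraries disagree on E2f1 (105 and 34.3).

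In LK cells none of the 48 genes passed between genotypes by limma or by edgeR, where 0.473% and 0.373% of all 13949 genes did. At an unadjusted p under 0.05 there were 2 higher (Bub1 and Top2a) and 1 lower (E2f1), beside 2.75% and 3.81% of all genes. The median was -0.02 beside 0.01 over all genes. Bub1, a checkpoint kinase, had 55.9 and 46.4 in WT LK and 98.6 and 67.2 in Ripk3-KO LK (0.67, SE 0.30, adjusted p = 0.71), separate but with a wide gap inside the Ripk3-KO pair. Ccne2 had 8.36 and 10.6 against 14.8 and 13.5 (0.54, SE 0.49, adjusted p = 0.92), and Nusap1, a microtubule bundler, 116 and 78.2 against 144 and 118 (0.45, SE 0.23, adjusted p = 0.79). Among those below WT, Ccne1 had 66.5 and 66.9 against 40.3 and 42.4, tight pairs well apart (-0.68, SE 0.34, adjusted p = 0.78), and Gins2 61.8 and 73.5 against 45.7 and 61.9, pairs that overlapped at 61.8 and 61.9 (-0.34, SE 0.25, adjusted p = 0.89).

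E2f1 had the widest gap between its genotype differences in the 2 populations. In LSK it had 17.0 and 13.3 in WT and 36.1 and 31.7 in Ripk3-KO, separate pairs (1.12, SE 0.41, adjusted p = 0.15). In LK it had 105 and 34.3 in WT and 20.2 and 26.6 in Ripk3-KO, so the Ripk3-KO pair lay below a WT pair whose replicates were far apart (-1.34, SE 0.41, adjusted p = 0.26). The difference between the effects, 2.46 (SE 0.58), did not pass (adjusted p = 0.076). Its size depends on the WT LK libraries. Without replicate 2 of WT LK, E2f1 became the 1 gene called in LK (-2.14, adjusted p = 0.014) and the 1 gene called for the difference (3.26, adjusted p = 0.0033). Without replicate 1 the values were -0.55 (adjusted p above 0.99) and 1.67 (adjusted p = 0.68). With all 8 libraries none of the 48 genes passed for the difference, by limma or edgeR, where 0.358% and 0.264% of all genes did, and 4 had an unadjusted p under 0.05 (E2f1, Gins2, Pcna and Ccnb1), beside 10.1% of all genes.

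**Figure D4:**
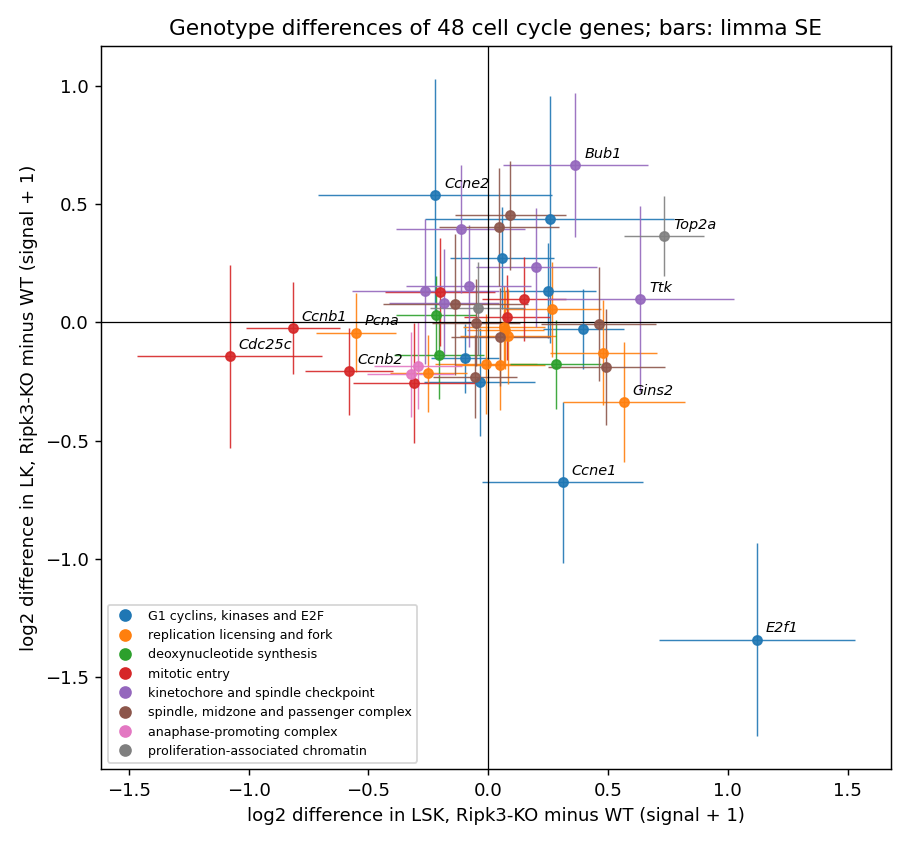
Log2 difference Ripk3-KO minus WT (signal + 1) in LSK (horizontal) and in LK (vertical) for the 48 genes, coloured by role, with limma standard errors. Most genes lie near the crossing of the 0 lines, E2f1 lies at 1.12 and -1.34, and Top2a at 0.73 and 0.37.

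Markers of other cells moved with genotype beside these values. Of all genes limma called 0.892% higher and 1.27% lower in LSK and 0.1% higher and 0.373% lower in LK. Over both populations it called 0.591% higher and 1.04% lower. The summed signal of 9 mature neutrophil markers was 697 and 756 in WT LSK against 2288 and 2713 in Ripk3-KO LSK. In LK it was 782 and 785 in WT against 1680 and 1682 in Ripk3-KO. By limma 6 of 9 were higher in LSK and 5 of 9 in LK, and none was at 0 in all libraries. By edgeR 6 were higher in LSK and 4 in LK, beside 0.464% and 0.108% of all genes. The 10 LSK markers summed to 2565 and 2487 in WT LSK and 3820 and 3434 in Ripk3-KO LSK, with 1 of 10 called higher. The 9 erythroid markers summed to 3022 and 2664 in WT LK and 1853 and 1946 in Ripk3-KO LK. Of these markers 7 lay below WT in both libraries, as did 19.9% of all genes, 1 (Car2) was called lower and none was at 0 in all libraries. Their sums overlapped in LSK (1871 and 1684 against 1802 and 1928), where 1 of 9 (Gata1) was called lower. Of the 13 immediate-early genes 3 were called lower in LK (Junb, Jund and Atf3, where edgeR called Atf3 only), 1 in LSK (Atf3) and 4 over both populations, and their sums in LK were 10944 and 10756 in WT and 8725 and 10713 in Ripk3-KO. Of the 10 myeloid progenitor markers 1 (Gata1, which the erythroid list also holds) was called lower in LSK. In LK 6 lay below WT in both libraries, beside the same 19.9% of all genes, with none called. Over both populations 2 were called lower (Gata1 and Elane) and 1 higher (Kit). Of the 7 monocyte and dendritic cell markers 1, Cd74, was called higher in LK (adjusted p = 0.0057) and over both populations. The part of these markers in the values of Top2a, Ccnb1 and the other genes was not tested.

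Of 159 wider cycle genes tested in LSK 2 were higher and 2 lower in Ripk3-KO, 1.26% in each direction, a share near the 0.892% and 1.27% of all genes. Stmn1, the microtubule-destabilizing stathmin, had 1287 and 1498 in WT and 540 and 475 in Ripk3-KO LSK (-1.45, SE 0.15, adjusted p = 3.4e-06). Cks2, a small Cdk-binding subunit, had 177 and 216 against 59.6 and 87.2 (-1.43, SE 0.21, adjusted p = 4.7e-04). For Cks2, 5 pseudogenes hold a stretch near-identical to part of its transcript. Dut, the dUTPase that keeps uracil out of DNA, had 65.7 and 74.9 against 146 and 155 (1.09, SE 0.22, adjusted p = 0.010). Fzr1, the late-mitotic activator of the anaphase-promoting complex, was low at 1.99 and 1.04 against 13.7 and 9.98 (2.36, SE 0.61, adjusted p = 0.046), which edgeR did not call (adjusted p = 0.17). All 4 pairs were separate. The call of Dut was lost in 5 of 17 alternatives, without the mean trend of the variance and without any 1 LSK library (adjusted p up to 0.11), and that of Fzr1 in 15 of 17, among them any 1 library left out (adjusted p up to 0.17). Stmn1 and Cks2 lost theirs in 1 of 17, without the trend. Over both populations Stmn1 (-0.86, SE 0.10) and Cks2 (-0.72, SE 0.15) were called lower, 1.27% of 158 tested against 1.04% of all genes, with none higher. Here the call of Cks2 held in 10 of 16 alternatives (adjusted p up to 0.26) and was lost without the filter, without the trend, and without WT LSK replicate 2, Ripk3-KO LSK replicate 1, WT LK replicate 1 or Ripk3-KO LK replicate 2, while that of Stmn1 held in 15 of 16, all but the one without the trend. Nearest to a higher call were Fzr1 (1.54, adjusted p = 0.084) and the kinesin Kif18a (0.87, adjusted p = 0.12). In LK none of 158 passed by limma or edgeR, with 2 higher (Myc and Rbl2) and 1 lower (Aspm) at an unadjusted p under 0.05, smaller shares than the 2.75% and 3.81% of all genes. Aspm, a spindle pole gene, had 28.1 and 29.6 in WT LK and 20.5 and 10.1 in the knockout (-0.95, SE 0.43, adjusted p = 0.69), and Orc6, of the origin recognition complex, 149 and 111 against 96.6 and 92.2 (-0.44, SE 0.22, adjusted p = 0.76). Rbl2, a pocket protein that restrains E2F, had 47.3 and 34 against 64.6 and 68.6 (0.72, SE 0.32, adjusted p = 0.69). The signal of Myc, the growth-driving transcription factor, was 317 and 273 in the WT LK pair against 374 and 434 (0.45, SE 0.18, adjusted p = 0.55).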

How the data were processed

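RNA-seq of sorted LSK and LK cells was analysed in 8 libraries, 2 per genotype and population. Per the labels, libraries were stranded mRNA preparations, and the submitters' processing notes name TopHat and the build mm9. The counter and its strand setting are not given in the sources used here. The deposited signal values are headed FPKM, but in every library each is a whole multiple of 1 step (100% of values within 0.01 of a whole read), so the authors' values were taken as reads scaled within LSK and within LK, without length. No column of another sample was present (0).

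Main test: limma 3.58.1 with a mean-variance trend on log2(value + 1), 4 group means over 8 libraries, genes with a mean of at least 1 over the libraries compared, and Benjamini-Hochberg adjustment over all genes tested, called at 0.05. A difference on this scale understates the change of low genes. LSK against LK used CPM of recovered reads with TMM factors over 8 libraries (edgeR 4.0.16). Two-sided exact permutation cannot go below p = 0.333 with 2 against 2 libraries, nor 0.0286 with 4 against 4. Alternatives were edgeR's quasi-likelihood test of the recovered reads, other scalings (DESeq2 1.42.0 size factors among them), filters and pseudocounts, a replicate block and single libraries left out. Scripts were tested on simulated data.

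The genes, role groups and marker lists were chosen with earlier results of these data known. Values per library or their ranges are given for genes called between genotypes or for the difference, and for the 3 largest differences each way. They are also given for the smallest p per role between LSK and LK. Among other cycle genes the 2 smallest p each way were chosen, of which Kif18a and Rpa2 have only their differences given. Positions and pseudogenes (BLAST 2.17.0, at least 90% identity over 200 bases) are from GENCODE M21 on GRCm38. A match of that length can cover only part of a transcript. The replicates differed by more than sampling noise (chi-square per degree of freedom 20.8 to 28.9).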

Additional observations from a re-analysis of the deposited data

Results flagged for a closer look

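For 3 of 158 other cell cycle genes tested the genotype difference in LSK was not that in LK by the limma interaction term adjusted over 15901 genes, of which 0.358% were called. Stmn1 gave -1.18 (SE 0.21, adjusted p = 0.0090), with 1287 and 1498 in WT and 540 and 475 in Ripk3-KO LSK beside 1104 and 969 in WT and 845 and 870 in Ripk3-KO LK. Cks2 gave -1.40 (SE 0.30, adjusted p = 0.034), with 242 and 221 in WT and 249 and 209 in Ripk3-KO LK. Dut gave 1.49 (SE 0.32, adjusted p = 0.034), with 76.9 and 81.4 in WT and 62.3 and 56.8 in Ripk3-KO LK, so it was higher in Ripk3-KO LSK and below WT in Ripk3-KO LK. The call held in 10 of 16 alternatives for Stmn1, 5 of 16 for Cks2 and 2 of 16 for Dut (adjusted p up to 0.32, 0.35 and 0.25), and all 3 lost it without the filter on low values or the variance trend. By edgeR only Stmn1 kept its call (adjusted p = 0.028, against 0.072 for Cks2 and 0.055 for Dut). With any 1 library left out, Dut did not pass. Cks2 passed only without Ripk3-KO LSK replicate 2, and Stmn1 did not pass without replicate 2 of WT LSK or of Ripk3-KO LSK or without either Ripk3-KO LK library. Next on the higher side was Rpa2, of the single-strand binding complex, at 0.69 (SE 0.25, adjusted p = 0.35). Groups of 2 libraries were too small to look for a sample far from its group.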

How the results depend on the processing

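Between LSK and LK, 38 of the 48 genes were called, 34 to 38 with 1 library left out, 34 without the filter on low values, 27 without the variance trend and 24 with quantile normalization. All genes together shifted by 0.39 with library totals alone and by 0.12 with median-of-ratios scaling. Relative to all genes the 48 lay at -0.85, -0.80 and -0.84 under TMM, totals and median-of-ratios, and at -0.45 with quantile normalization. With TMM and a mean of at least 5 they lay at -0.60, where the median of all genes was -0.18. Of the 48 genes 46 lay below 0, which became 40 with library totals alone, 41 with quantile normalization, 45 in the WT libraries alone and 44 in the Ripk3-KO libraries alone. Among named genes that were called the sign turned for E2f1, at 0.17 in the Ripk3-KO libraries alone, and Stmn1, at 0.055 in the WT libraries alone, and Dut, not called at 0.21, was -0.54 in the WT libraries alone. Between genotypes in LSK, the 2 calls became 0 without the filter on low values, 0 without the variance trend, 0 with the LSK libraries fitted alone and 1 with edgeR, and were 0 to 2 with 1 library left out. Over both populations the 1 call became 0 without the filter and 0 without the trend, and was 0 to 1 with 1 library left out. In LK and for the difference between the effects the 0 calls became 0 to 1, the 1 being E2f1 without WT LK replicate 2. When 1 library is left out, the lone sample of its group is assumed to vary like the others. A replicate block left 2, 0, 1, 0 and 38 of the 48 genes called by limma. It ended the calls of Dut for the difference (adjusted p = 0.054) and of Fzr1 in LSK (adjusted p = 0.056). Same-numbered libraries did not deviate together over all genes (correlations -0.14 to -0.01). With 2 libraries per group this cannot tell whether same-numbered libraries came from the same animals. The cause of these shifts was not tested.

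Each group has 2 libraries, so the spread is estimated over all 4 groups together. Over all genes edgeR called 209 between genotypes in LSK where limma called 363. The 1 read step of 0.0621 to 0.104 limits only low genes such as Fzr1. Signs of RNA quality were not analysed here.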
